A study of Mus musculus with 4 samples.

Results

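The liver sinusoidal endothelial genes described here are *Stab1*, *Stab2*, *Lyve1*, *Clec4g*, *Oit3*, *Fcgr2b*, *Pecam1*, *Kdr*, *Gata4* and *Bmp2*, 10 of the 22103 entries in the deposited table. They were chosen by gene name, and each name matched 1 entry. The libraries came from whole liver of 2 WT mice and of 2 mice with hepatocyte-specific Brg1 deletion (Brg1 LKO, labelled KO). All 4 drank alcohol for 15 days by the labels, and the study's methods describe chronic-plus-binge ethanol feeding of males from 8 weeks of age. The Brg1 LKO mice carry floxed *Smarca4*, the gene of Brg1, and *Alb*-Cre, which is active in hepatocytes, so sinusoidal endothelial cells in these livers were not the target of the deletion. The WT mice were littermates, and whether they carried floxed alleles without Cre is not given in the sources used here. All 4 livers used here had alcohol, so the comparison asks how the level of endothelial transcripts in whole liver differed by hepatocyte Brg1 status under alcohol.

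Liver sinusoidal endothelial cells (LSECs) line the capillaries of the liver lobule. They are fenestrated, lack an organized basement membrane and take up waste from the blood through scavenger receptors. They also release ligands that act on hepatocytes, among them Bmp2, which drives hepatocyte expression of hepcidin, the hormone that restrains iron export. Gata4 is the transcription factor known to set sinusoidal as opposed to continuous capillary identity. Several of the 10 genes are not exclusive to LSECs: *Lyve1*, *Stab1* and *Fcgr2b* are also known in macrophages, *Pecam1* in every endothelium and in leukocytes, and *Gata4* in stellate cells and hepatocytes.

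For 5 of the 10 genes RefSeq windows were at hand, and in 4 of them the RefSeq start lay within 200 bases of the start of the transcript listed in the table. These 4 are shown because a window near the listed start was at hand for them. They include *Kdr*, which had the widest ratio between the LKO livers, and none of *Gata4*, *Pecam1* and *Lyve1*. Each is the 250 bases before the RefSeq start in GRCm38.p6, written 5′ to 3′ on the gene's strand. Capitals mark CNGGAA on either strand, the letters of the core bound by ETS factors such as Erg and Fli1.
Kdr, chr5:75978456-75978705, minus strand: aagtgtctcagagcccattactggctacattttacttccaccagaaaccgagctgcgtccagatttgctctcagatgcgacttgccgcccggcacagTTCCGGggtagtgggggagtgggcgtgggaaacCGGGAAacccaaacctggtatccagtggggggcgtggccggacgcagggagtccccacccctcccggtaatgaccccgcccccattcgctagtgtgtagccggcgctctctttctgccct
Fcgr2b, chr1:170976072-170976321, minus strand: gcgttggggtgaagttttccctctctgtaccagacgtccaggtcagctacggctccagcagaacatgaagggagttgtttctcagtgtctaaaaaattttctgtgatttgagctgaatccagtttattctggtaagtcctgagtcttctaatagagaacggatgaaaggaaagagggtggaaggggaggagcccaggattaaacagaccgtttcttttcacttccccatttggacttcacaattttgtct
Stab2, chr10:87007943-87008192, minus strand: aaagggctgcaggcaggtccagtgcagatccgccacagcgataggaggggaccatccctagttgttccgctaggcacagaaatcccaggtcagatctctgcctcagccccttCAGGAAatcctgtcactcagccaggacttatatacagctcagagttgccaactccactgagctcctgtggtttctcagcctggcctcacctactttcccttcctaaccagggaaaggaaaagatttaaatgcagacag
Stab1, chr14:31168642-31168891, minus strand: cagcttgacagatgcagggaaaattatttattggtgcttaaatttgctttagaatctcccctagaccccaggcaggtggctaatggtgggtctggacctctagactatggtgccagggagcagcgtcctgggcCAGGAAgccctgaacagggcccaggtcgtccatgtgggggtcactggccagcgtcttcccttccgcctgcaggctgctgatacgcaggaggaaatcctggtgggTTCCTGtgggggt
CNGGAA was found 2 times before *Kdr*, 2 times before *Stab1*, 1 time before *Stab2* and 0 times before *Fcgr2b*, where 54.2% of all 32851 RefSeq windows of this length hold it. The letters GATAA, a longer form of the GATA core bound by GATA factors, were found in 0 of the 4 windows on either strand, against 22.6% of all windows. The shorter letters GATA do occur before *Stab1* and *Stab2* and, on the other strand, before *Kdr*. They were not marked or counted over all windows. No match overlapped another. These are matches of letters in a short window and say nothing of binding.

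Values are FPKM, fragments per kilobase of transcript scaled to the total of the library, so levels can be compared between genes. Depth estimated from the steps of low FPKM values was 72577800 to 80903600 reads a library. *Smarca4* was at 1.78 and 1.95 FPKM in WT, against 0.608 and 0.579 FPKM in LKO livers 1 and 2, or 31.8% of the mean of WT. Genotypes were compared with limma on log2(FPKM + 0.1) over the 12346 entries with a mean of at least 0.1 FPKM, which all 10 members passed. The added 0.1 draws fold changes of genes near that level toward 0. Calls follow the threshold in the study's methods, more than 2-fold with p under 0.05 before adjustment. The labels do not say whether the livers of a group came from separate litters or cages, and p-values measure the spread between these libraries. An exact permutation test of 2 livers against 2 cannot give a two-sided p below 0.333, and limma's p-values rest on a spread shared across genes. In whole liver, fewer cells of a type and less RNA per cell cannot be told apart. The LKO livers stood apart from each other more than the WT livers did: 17.2% of all entries tested differed by more than 2-fold between LKO livers 1 and 2, against 6.35% between WT livers 1 and 2. The scale of the libraries differed too, since the median entry was 1.26 times higher in LKO liver 2 than in LKO liver 1 and 1.23 times higher in WT liver 2 than in WT liver 1. Ratios between the LKO livers are therefore also given after median-ratio rescaling, which sets these medians near 1, and shares of the WT mean are as deposited unless said otherwise.

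None of the 10 genes passed the test between genotypes. By limma, 0 members passed the study's threshold as lower and 0 as higher, where 0.543% and 0.437% of all entries tested did, 0 had an unadjusted p under 0.05 (2.00% of all entries), and 0 had an adjusted p under 0.05 (0.00% of all entries). The log2 fold changes ran from −0.54 for *Bmp2* to −0.0078 for *Stab2*, with a median of −0.28 against −0.024 over all entries tested. All 10 were on the lower side, against 53.9% of all entries, but for most of them this side rested on LKO liver 1. With that liver left out, 4 of 10 were lower (34.2% of all entries) and the median was 0.16. With LKO liver 2 left out 9 of 10 were lower (68.9% of all entries) and the median was −0.62. *Stab1*, *Gata4* and *Pecam1* stayed lower with either LKO liver left out. For *Lyve1* the lower side rested on LKO liver 2, and its log2 fold change was 0.17 with that liver left out. With LKO liver 2 left out, 4 members, *Bmp2*, *Clec4g*, *Kdr* and *Oit3*, passed the study's threshold as lower (2.58% of all entries), a fit in which the remaining LKO liver is assumed to vary like the WT livers. Liver by liver, the LKO livers tended to lie further apart than the WT livers, in the members and over all entries. In all 10 members the LKO livers were further apart, as a ratio, than the WT livers (59.4% of all entries), and after rescaling in 8 of 10 (64.8% of all entries). After rescaling the same held in 12 of 12 LSEC-enriched genes, 14 of 18 pan-endothelial genes and 10 of 11 Kupffer cell markers described below. It held in 6 of 10 stellate cell markers and 2 of 10 hepatocyte markers.

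**Figure D1:**
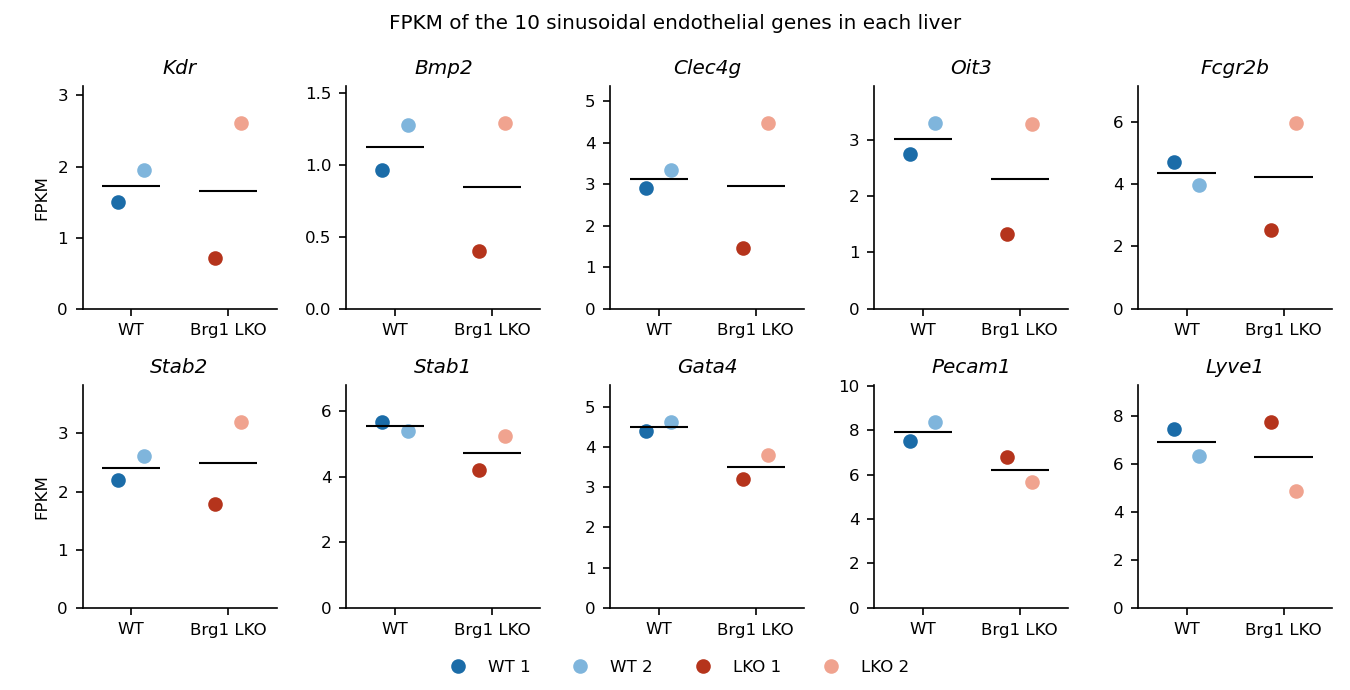
FPKM of each gene on the vertical axis, with 1 point per liver, WT and Brg1 LKO side by side and a line at each group mean (n = 2). For *Kdr*, *Bmp2*, *Clec4g*, *Oit3* and *Fcgr2b* the WT points lie between or beside LKO points that are more than 2-fold apart, while for *Stab1*, *Gata4* and *Pecam1* both LKO points lie below both WT points.

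The scavenger receptors were the largest class. Stab1 and Stab2, the stabilins, are large receptors that clear modified proteins, and Stab2 also clears hyaluronan. *Stab1* (chromosome 14 of GRCm38, 31139013 to 31168641, minus strand, 69 exons) was at 5.66 and 5.41 FPKM in WT, against 4.20 and 5.26 FPKM in LKO livers 1 and 2. Both LKO livers were below both WT livers, LKO liver 2 by a narrow margin. The group means were 5.54 ± 0.177 FPKM (SD, n = 2) in WT and 4.73 ± 0.751 FPKM (SD, n = 2) in Brg1 LKO, a log2 fold change of −0.23 (standard error 0.34). The gene overlaps *Nt5dc2* on the opposite strand. *Stab2* (chromosome 10, 86841198 to 87008025, minus strand, 69 exons) was at 2.20 and 2.62 FPKM in WT, against 1.78 and 3.19 FPKM in LKO livers 1 and 2. Here the LKO livers enclosed the WT livers, 1 below and 1 above, and the means were 2.41 ± 0.299 FPKM in WT and 2.48 ± 0.997 FPKM in Brg1 LKO (SD, n = 2). Its log2 fold change of −0.0078 (standard error 0.37) turned positive under other settings, to 0.024 after rescaling. The ratio of LKO liver 2 to LKO liver 1 was 1.79 for *Stab2* and 1.25 for *Stab1*, or 1.43 and 0.999 after rescaling. The stabilins differed between the WT livers too, where the ratio of WT liver 2 to WT liver 1 was 1.19 for *Stab2* and 0.956 for *Stab1*.

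Fcgr2b, the inhibitory Fc gamma receptor, removes small immune complexes in LSECs, and Clec4g, or LSECtin, is a C-type lectin. *Fcgr2b* (chromosome 1, 170964333 to 170976127, minus strand, 5 exons) was at 4.71 and 3.98 FPKM in WT, against 2.53 and 5.96 FPKM in LKO livers 1 and 2, so that the LKO livers again lay on either side of the WT livers. Its log2 fold change was −0.15 (standard error 0.40), while LKO liver 1 was at 58.2% and LKO liver 2 at 137% of the WT mean. The ratio between the LKO livers was 2.36, or 1.88 after rescaling. *Fcgr2b* has close relatives among the other Fc receptor genes, and how reads were shared among them is not known. *Clec4g* (chromosome 8, 3707064 to 3717553, minus strand, 4 exons in the listed transcript) was at 2.90 and 3.35 FPKM in WT, against 1.46 and 4.47 FPKM in LKO livers 1 and 2. The WT livers differed by 1.15 times and the LKO livers by 3.05 times, or 2.44 times after rescaling, and the log2 fold change between genotypes was −0.27 (standard error 0.44). The *Clec4g* values rest on an estimated 165 to 468 reads a liver, the fewest but for *Bmp2*, and the counting interval of the LKO ratio was 2.55 to 3.67 (95%, exact binomial, counting error only).

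Lyve1, a hyaluronan receptor of sinusoidal and lymphatic endothelium, went the other way between the LKO livers. *Lyve1* (chromosome 7, 110850607 to 110863239, minus strand, 6 exons) was at 7.44 and 6.35 FPKM in WT, against 7.73 and 4.88 FPKM in LKO livers 1 and 2. LKO liver 1 was the highest of the 4 livers and LKO liver 2 the lowest, the reverse of *Clec4g*, *Fcgr2b* and *Stab2*. The log2 fold change was −0.16 (standard error 0.35), and the ratio of LKO liver 2 to LKO liver 1 was 0.632, or 0.504 after rescaling. Of the lymphatic markers on the fixed list, *Ccl21a* measured 0.469, 0.460, 0.441 and 0.222 FPKM in WT livers 1 and 2 and LKO livers 1 and 2. *Pdpn*, named after its values were seen, was at 0.0136, 0.331, 0.0352 and 0.0152 FPKM in the same order. *Prox1*, which hepatocytes also express, was at 13.2, 11.1, 10.8 and 10.3 FPKM. The part of lymphatic endothelium in the *Lyve1* values was not tested.

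Kdr is VEGF receptor 2, the main signalling receptor for VEGF-A in endothelium, and Pecam1, or CD31, is an adhesion molecule of endothelial junctions. *Kdr* (chromosome 5, 75932827 to 75978458, minus strand, 30 exons) was at 1.50 and 1.96 FPKM in WT, against 0.710 and 2.61 FPKM in LKO livers 1 and 2. It had the widest gap of the 10 genes between the LKO livers, 3.68 times (95% exact binomial counting interval 3.25 to 4.17), a ratio exceeded by 2.78% of all entries tested, and 2.93 times after rescaling. LKO liver 1 was at 41.1% and LKO liver 2 at 151% of the WT mean, which left a log2 fold change of −0.29 (standard error 0.48). *Pecam1* (chromosome 11, 106654218 to 106715394, minus strand, 16 exons), the most abundant member, was at 7.49 and 8.35 FPKM in WT, against 6.78 and 5.68 FPKM in LKO livers 1 and 2. Both LKO livers were below both WT livers as deposited, but not after rescaling, when LKO liver 1 was at 7.67 and WT liver 2 at 7.40 rescaled FPKM. The means were 7.92 ± 0.608 FPKM in WT and 6.23 ± 0.778 FPKM in Brg1 LKO (SD, n = 2), with a log2 fold change of −0.35 (standard error 0.33). *Kdr* and *Pecam1* thus ordered the LKO livers in opposite directions.

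*Gata4* (chromosome 14, 63198922 to 63245271, minus strand, 7 exons) was at 4.40 and 4.61 FPKM in WT, against 3.20 and 3.80 FPKM in LKO livers 1 and 2. Both LKO livers were below both WT livers as deposited and after rescaling, and the means, 4.51 ± 0.147 FPKM in WT and 3.50 ± 0.423 FPKM in Brg1 LKO (SD, n = 2), were further apart than either spread. The log2 fold change was −0.36 (standard error 0.33) and stayed between −0.48 and −0.24 with each liver left out in turn, but it did not pass the limma test. Together with *Stab1* and *Pecam1* this made 3 of 10 members whose LKO values were both below the WT values, against 10% of all entries tested, and after rescaling *Gata4* and *Stab1* made 2 of 10, against 14.1% of all entries. With 10 genes these counts are a description. Of the genes fixed as partners and relatives of Gata4, the cofactor *Zfpm1* was at 2.14, 3.56, 2.48 and 3.65 FPKM and *Gata6* at 0.994, 1.29, 1.25 and 1.22 FPKM in WT livers 1 and 2 and LKO livers 1 and 2, and their groups overlapped.

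Oit3 is a secreted protein with a zona pellucida domain, made in LSECs. *Oit3* (chromosome 10, 59422958 to 59441778, minus strand, 9 exons) was at 2.75 and 3.30 FPKM in WT, against 1.34 and 3.29 FPKM in LKO livers 1 and 2. LKO liver 2 lay within the WT values and LKO liver 1 was at 44.2% of the WT mean, from an estimated 284 reads against 604 to 717 in the other 3 livers. The log2 fold change was −0.50 (standard error 0.41).

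*Bmp2* (chromosome 2, 133552159 to 133562885, plus strand, 3 exons) was the least abundant member, at 0.966 and 1.28 FPKM in WT, against 0.403 and 1.29 FPKM in LKO livers 1 and 2. LKO liver 2 was level with WT liver 2, while LKO liver 1 stood at 35.9% of the WT mean, the lowest share of any member in any liver. The reads behind these values were estimated at 278, 363, 112 and 333, and the ratio between the LKO livers was 3.20 (95% exact binomial counting interval 2.58 to 4.003), or 2.55 after rescaling. The log2 fold change between genotypes was −0.54, the lowest of the 10 (standard error 0.44). Each of the 10 members had a limma adjusted p of 1.00 (Benjamini-Hochberg, over all entries tested).

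Downstream of Bmp2 and its relative Bmp6 stands hepcidin, encoded in the mouse by *Hamp*, with *Hamp2* as a near-identical neighbour whose reads may not be separable from it. *Hamp* was at 596 and 258 FPKM in WT, against 1092 and 86.9 FPKM in LKO livers 1 and 2, and *Hamp2* at 150 and 68.9 FPKM and at 273 and 23.3 FPKM. The liver with the least *Bmp2* therefore had the most hepcidin RNA, and the order of the 4 livers by *Hamp* was the reverse of their order by *Bmp2*, though *Bmp2* hardly differed between WT liver 2 and LKO liver 2. With 4 livers this is a statement of order and no test. Of the 12 receptors and pathway genes on the fixed list, 0 passed the threshold. A log2 fold change below 0 was seen in 11 (53.9% of all entries), with a median of −0.25. Both LKO livers were below both WT livers in 5 of 12 (10% of all entries). The lowest log2 fold change was −0.82, for *Atoh8*, a BMP-induced transcription factor in hepatocytes. *Atoh8* was at 2.21, 3.53, 1.83 and 1.29 FPKM in WT livers 1 and 2 and LKO livers 1 and 2. The highest log2 fold change was 0.056, for the receptor *Bmpr1a*. With LKO liver 1 left out 4 of the 12 passed as lower (1.21% of all entries), and with LKO liver 2 left out 2 passed as higher (1.06% of all entries). *Hamp* and *Hamp2* were in both counts. LKO liver 1 was at 256% and 250% of their WT means, and LKO liver 2 at 20.4% and 21.3%. Their side thus turned with the liver left out, and the pair may count 1 signal 2 times. The other genes passing as lower were *Atoh8* and *Id1*, with LKO liver 2 at 45.0% and 44.9% of the WT mean. Other direct targets of BMP signalling were named after their values were seen. *Smad6* was at 1.23, 1.12, 0.775 and 0.802 FPKM in WT livers 1 and 2 and LKO livers 1 and 2. Both LKO livers were lowest. *Smad7*, on the same list and likewise named, was at 0.332, 0.418, 0.269 and 0.319 FPKM, also with both LKO livers lowest. *Id1* was at 1.18, 1.14, 1.15 and 0.522 FPKM, with LKO liver 2 lowest as for *Hamp* and the other 3 livers close together. *Bmp6*, also named after its values were seen, was at 0.0718, 0.187, 0.101 and 0.154 FPKM, under *Bmp2* in each liver.

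**Figure D2:**
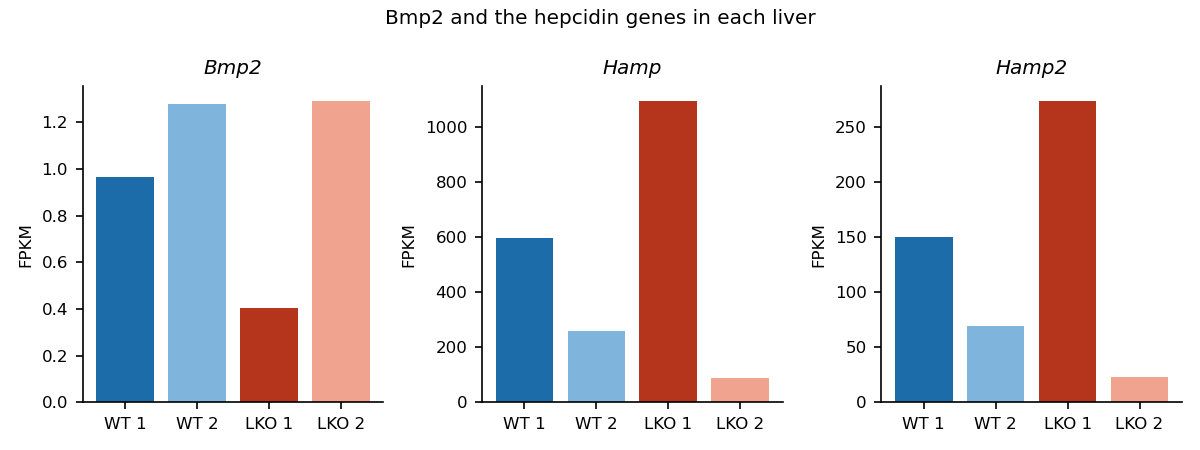
FPKM of *Bmp2*, *Hamp* and *Hamp2* in each of the 4 livers, with bars from 0 and 1 bar per liver. LKO liver 1 has the lowest *Bmp2* bar (0.403 FPKM) and the highest *Hamp* bar (1092 FPKM), and LKO liver 2 has the lowest *Hamp* bar (86.9 FPKM).

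Set side by side, the members are listed here from the highest to the lowest ratio between the LKO livers. The ratio of LKO liver 2 to LKO liver 1 was 3.68 for *Kdr*, 3.20 for *Bmp2*, 3.05 for *Clec4g*, 2.46 for *Oit3*, 2.36 for *Fcgr2b*, 1.79 for *Stab2*, 1.25 for *Stab1*, 1.19 for *Gata4*, 0.838 for *Pecam1* and 0.632 for *Lyve1*. Rescaling multiplies each ratio by the same factor and so cannot change the order. After it the ratios were 2.93, 2.55, 2.44, 1.96, 1.88, 1.43, 0.999, 0.947, 0.668 and 0.504 in the same order of genes. The ratio passed 2 in 5 of 10 members, against 13.9% of all entries tested, and in 3 of 10 after rescaling, against 7.72%. LKO liver 1 was the lowest of the 4 livers in 8 of 10 members (46.6% of all entries) and in 6 of 10 after rescaling (29.9%). LKO liver 2 was the highest in 5 of 10 (41.0% of all entries), and LKO liver 1 was more than 2-fold above LKO liver 2 in 0 of 10 (3.32%). Between the WT livers 0 of 10 members were more than 2-fold apart, and the widest ratio was 1.32, for *Bmp2*. Neighbours in this order were often alike within counting error: the interval of *Bmp2* held the ratio of *Clec4g*, and the interval of *Oit3* that of *Fcgr2b*. The intervals of *Kdr* and *Lyve1*, the ends of this order, were 3.25 to 4.17 and 0.584 to 0.683 and did not meet. These intervals cover counting error only and not the variation between mice. By level, the order over the 4 livers ran from *Pecam1* (mean 7.08 FPKM), *Lyve1*, *Stab1*, *Fcgr2b* and *Gata4* to *Clec4g*, *Oit3*, *Stab2*, *Kdr* and *Bmp2* (mean 0.984 FPKM), and *Clec4g* and *Oit3* overlapped within the WT livers.

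**Figure D3:**
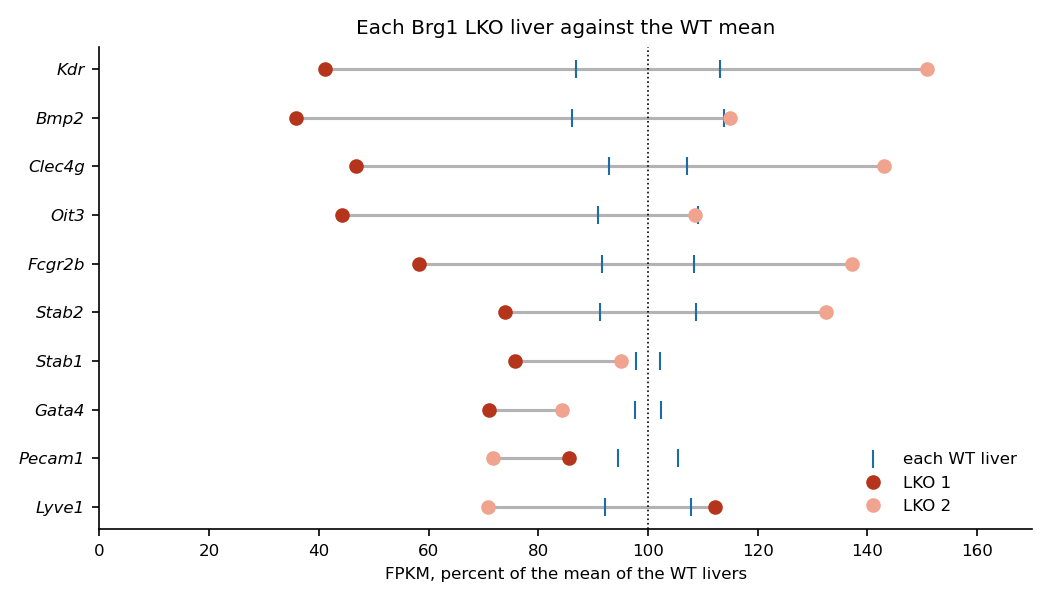
FPKM of each gene in LKO livers 1 and 2 as a percent of the mean of the WT livers on the horizontal axis, with each WT liver as a tick and genes ordered by the ratio between the LKO livers. LKO liver 1 lies furthest left for *Bmp2* (35.9%), LKO liver 2 furthest right for *Kdr* (151%), and the order of the LKO livers is turned for *Pecam1* and *Lyve1*.

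Other genes enriched in LSECs, from a fixed list of 12, had LKO liver 1 below LKO liver 2 like *Kdr* and *Clec4g*. In the limma fit 0 of 12 passed the threshold in either direction, and the median log2 fold change was −0.11. This median turned to 0.29, with 1 of 12 lower, when LKO liver 1 was left out. Over all entries the median was then 0.12, with 34.2% lower. When LKO liver 2 was left out the median of the list was −0.55, with 12 of 12 lower. Over all entries it was then −0.17, with 68.9% lower. LKO liver 1 was below LKO liver 2 in 12 of 12 (73.2% of all entries) and in 10 of 12 after rescaling (50.4%). The median ratio was 2.11, or 1.68 after rescaling, close to the members' 2.08 and 1.66. Of the 12 genes, 6 had a mean of at least 1 FPKM, and what part of their values came from macrophages was not tested. The list ran from *Ntn4* at a log2 fold change of −0.43 to *Ehd3*, an endocytic trafficking protein, at 0.22. Its most abundant genes were *Igfbp7*, a secreted binding protein, at 19.9 to 27.3 FPKM in the 4 livers, and *Maf*, a transcription factor of LSECs, at 3.06, 3.88, 2.02 and 4.44 FPKM, in WT livers 1 and 2 and LKO livers 1 and 2. Genes of all endothelium were split between the LKO livers, and the difference from the members was not tested. Of 18 pan-endothelial genes 0 passed the threshold (median log2 fold change −0.21, from −0.49 for *Tek* to 0.34 for *Nrp1*), LKO liver 1 was below LKO liver 2 in 9 of 18, and the median ratio was 1.04, or 0.832 after rescaling. *Ramp2*, an adrenomedullin receptor component and the most abundant of them, was at 6.68, 7.70, 6.06 and 7.63 FPKM. With each liver left out in turn, the median of the pan-endothelial genes ranged from −0.37 to −0.10.

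**Figure D4:**
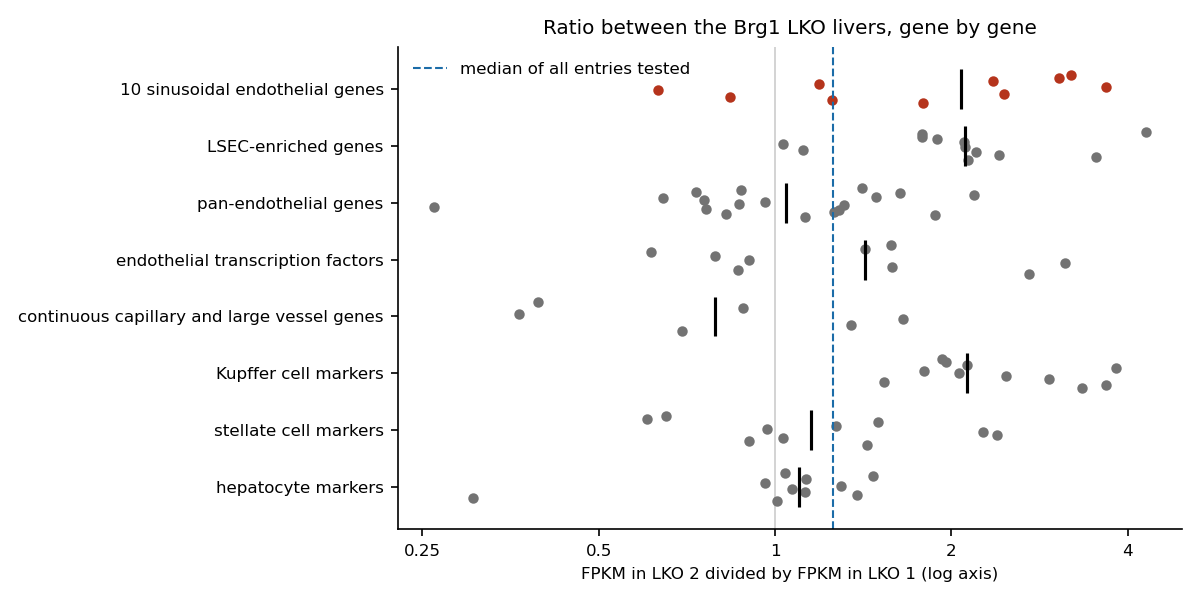
Ratio of FPKM in LKO liver 2 to LKO liver 1 on a log axis, with 1 point per gene, a black bar at the median of each list and a dashed line at the median of all entries tested (1.26). The medians of the 10 genes (2.08), of the LSEC-enriched genes (2.11) and of the Kupffer cell markers (2.12) lie to the right of the dashed line, that of the pan-endothelial genes (1.04) to its left.

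Markers of other liver cells were set beside the members. Kupffer cell markers, 11 of 11 of them higher in LKO liver 2 than in LKO liver 1, had a median ratio of 2.12, or 1.69 after rescaling, and the same order was seen in 73.2% of all entries, or 50.4% after rescaling. Their summed level was 48.8 and 49.9 FPKM in the WT livers against 63.2 and 139 FPKM in LKO livers 1 and 2. The summed level of the 10 members was 40.0 and 41.2 FPKM in the WT livers against 30.1 and 40.4 FPKM in LKO livers 1 and 2. In LKO liver 1 the Kupffer sum was thus at 128% and the member sum at 74.2% of the WT mean, on opposite sides of it, while in LKO liver 2 they were at 282% and 99.5%. After rescaling the member sum was at 84.7% in LKO liver 1 and 90.7% in LKO liver 2, against 109% and 90.8% in WT livers 1 and 2. In this rescaled sum the LKO livers were thus closer together than the WT livers, and LKO liver 2 was level with WT liver 2. The rescaled Kupffer sum was at 146% and 257% in LKO livers 1 and 2. Genotypes differed past the threshold for 3 of 11 Kupffer markers, *Cd68*, *Cd5l* and *Vsig4*, all higher (0.437% of all entries), and for 0 of 10 members. The Kupffer count was 2 after median-ratio rescaling, and 1 under quantile normalization or with no filter on low values. With LKO liver 2 left out 1 of 11 Kupffer markers passed as higher (1.06% of all entries) and their median log2 fold change was 0.25 in place of 0.84, and with LKO liver 1 left out 11 of 11 passed (3.26% of all entries) and it was 1.39. *C1qa*, among the most abundant, was at 12.0, 11.7, 14.0 and 27.1 FPKM, and *Timd4*, with the lowest log2 fold change of the list at 0.56, was at 0.444, 0.438, 0.353 and 1.30 FPKM. The defining Kupffer markers *Clec4f* (10.7, 10.9, 13.5 and 27.9 FPKM) and *Vsig4* (2.33, 2.69, 2.79 and 9.32 FPKM) were present in each liver, and what part of the *Lyve1*, *Stab1* and *Fcgr2b* values came from macrophages was not tested. Stellate markers summed to 28.1 and 36.9 FPKM in WT and to 27.6 and 36.1 FPKM in LKO livers 1 and 2, with 0 of 10 past the threshold and the lowest and highest log2 fold changes at *Lrat* (−0.45) and *Col3a1* (0.43), and *Dcn* and *Colec11* as the most abundant. Hepatocyte markers summed to 20718 to 26158 FPKM in the 4 livers with 0 of 10 past the threshold, from *Serpina1c* (−0.25) to *Tat* (0.53), and with *Alb* and *Serpina1c* the most abundant. B cell markers summed to 0.244 FPKM or less in each liver. Every member was above 0 in every liver, where 15510 to 15641 of the 22103 entries were above 0 in a given liver.

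**Figure D5:**
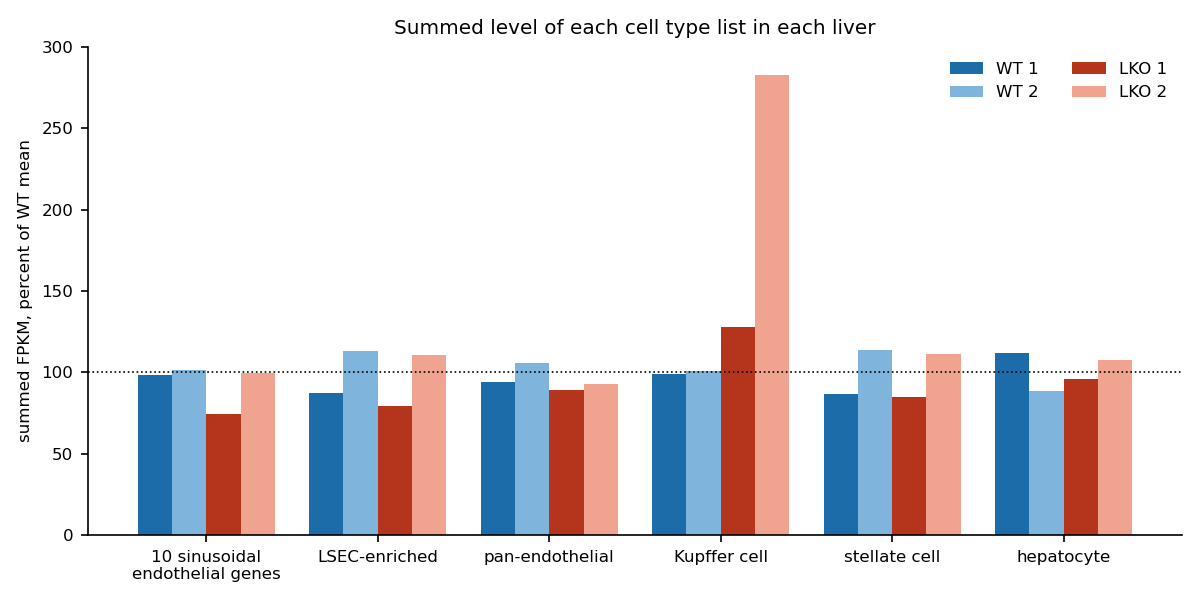
Summed FPKM of each marker list in each liver as a percent of the mean of the WT livers, with bars from 0. The bar of the 10 sinusoidal endothelial genes in LKO liver 1 stands at 74.2% and that of the Kupffer cell markers in LKO liver 2 at 282%. After rescaling, not drawn, the sum of the 10 genes was at 84.7% in LKO liver 1, against 109% and 90.8% in WT livers 1 and 2.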

How the data were processed

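Liver RNA of 2 WT and 2 Brg1 LKO mice was analysed, grouped by the sample labels. The authors deposited FPKM, 1 value per entry and liver. Differential expression in the study used DESeq on read counts, which were not used here. Its methods give Trimmomatic, HISAT2 on GRCm38 and Cufflinks, and the submitters' processing notes name HISAT2 2.0.4 and StringTie 2.1.4. The methods describe TruSeq stranded libraries, and the labels a BGIseq protocol. FPKM depends on the other transcripts of a library, so abundant genes shift the rest.

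Members were matched by symbol. Symbols turned into dates (27) were restored from GENCODE M21, and of entries sharing a symbol the highest kept it. Gene lists, the threshold and the alternatives were chosen with earlier results of these data known. The genes named are the members and, from each other list, the 2 most abundant, those past the threshold and the lowest and highest log2 fold change, with exceptions stated in the text.

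limma 3.58.1 in R 4.3.3 (eBayes with trend) was run on log2(FPKM + 0.1) for entries with a mean of at least 0.1 FPKM, with Benjamini-Hochberg adjustment, and tested on simulated data. Library reads were estimated from low FPKM values of transcripts of at least 2000 bases (88.5% to 89.7% of values up to 20 reads within 0.1 of a whole read). Reads per gene are estimates at the length of the listed transcript, and intervals (Python 3.11.15, SciPy 1.17.1) cover counting error only. Promoter windows came from RefSeq, GRCm38.p6. Alternatives were pseudocounts of 1 and 0.01, no filter, a filter at 1 FPKM, quantile normalization, median-ratio rescaling, no trend in eBayes, the replicate number as a block and each liver left out in turn.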

Additional observations from a re-analysis of the deposited data

How the results depend on the processing

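The number of members past the threshold was 0 in each direction under the 8 alternatives that kept all livers, in which the median log2 fold change of the members ranged from −0.31 to −0.18. With each liver left out in turn, the number called lower ranged from 0 to 4 and the median from −0.62 to 0.16, both extremes set by the LKO livers. Across the same left-out livers the log2 fold change changed sign for *Stab2* (−0.41 to 0.40), *Lyve1* (−0.48 to 0.17), *Clec4g* (−1.04 to 0.51), *Oit3* (−1.11 to 0.12), *Fcgr2b* (−0.75 to 0.45), *Kdr* (−1.16 to 0.58) and *Bmp2* (−1.27 to 0.20). It kept its sign for *Stab1*, *Pecam1* and *Gata4*. *Stab2* also turned positive with a pseudocount of 1 (0.0043), after median-ratio rescaling (0.024) and under quantile normalization (0.0063). The cause was not tested. With the filter at 1 FPKM, *Bmp2* was not tested. With the replicate number as a block, 0 members passed and the median stayed at −0.28. The labels do not say that a number marks a shared litter or day, and the deviations of WT liver 1 and LKO liver 1 from their group means correlated at 0.031 across genes, so the pairing was not used. With 2 livers a group, the spread of a gene within a group rests on 2 values.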

Other observations

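Endothelial ligands that act on hepatocytes sustain pericentral gene expression and growth. Of 9 on the fixed list 8 were tested and 0 passed the study's threshold, 6 of 8 had a log2 fold change below 0 (53.9% of all entries), and the median was −0.50 against −0.024 over all entries tested. A pseudocount of 1 moved this median to −0.11, and leaving out LKO liver 1 moved it to −0.21. *Wnt9b*, a Wnt ligand of central vein endothelium, had the lowest value, −0.89, at 0.394 and 0.457 FPKM in WT, against 0.311 and 0.0945 FPKM in LKO livers 1 and 2. *Wnt2* was at 0.888 and 2.03 FPKM in WT, against 0.709 and 1.06 FPKM in LKO livers 1 and 2, with the groups overlapping. *Rspo3*, which strengthens Wnt signalling, was at 1.50 and 1.51 FPKM in WT, against 1.24 and 0.834 FPKM in the LKO livers. Both LKO values were below both WT values in 5 of the 8 ligands, against 10% of all entries tested. The highest was *Hgf*, a hepatocyte growth factor also made by stellate cells, at a log2 fold change of 0.22. LKO liver 1 was below LKO liver 2, as for *Kdr* and *Bmp2*, in 5 of the 8 ligands (73.2% of all entries). After rescaling it was also 5 of 8 (50.4% of all entries). *Wnt9b*, *Rspo3* and *Hgf* were lower in LKO liver 2 than in LKO liver 1.

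Of 12 endothelial transcription factors, 9 were tested and 0 passed the threshold. *Sox18* was at 1.50 and 1.22 FPKM in WT, against 0.426 and 1.16 FPKM in LKO livers 1 and 2, a log2 fold change of −0.84 (standard error 0.42), with its low value in LKO liver 1 as for *Kdr* and *Bmp2*. *Klf4*, a factor induced by shear stress, was at 0.249 and 0.405 FPKM in WT, against 0.650 and 0.587 FPKM in the LKO livers, a log2 fold change of 0.77, and the most abundant factors were *Klf2* (1.26, 1.80, 2.29 and 1.81 FPKM) and *Erg* (1.55, 1.94, 1.15 and 1.82 FPKM) in WT livers 1 and 2 and LKO livers 1 and 2. Of 8 genes of continuous capillaries and large vessels, 6 were tested and 0 passed, from *Vwf* (log2 fold change −0.65) to *Ly6c1* (0.68). The most abundant of them were *Plvap* (8.21 to 13.1 FPKM) and *Fabp4* (3.55 to 9.72 FPKM). Of 5 VEGF ligands, 3 were tested and 0 passed. *Vegfa*, the ligand of Kdr, was at 19.3 and 33.9 FPKM in WT, against 16.6 and 27.6 FPKM in LKO livers 1 and 2, higher in liver 2 of each group, and *Vegfb* was at 2.87, 9.65, 4.61 and 4.71 FPKM. *Vegfc* had a log2 fold change of −0.14. Of 3 lymphatic and 5 cholangiocyte markers, 2 and 4 were tested and 0 passed, the cholangiocyte markers running from *Sox9* (−0.84) to *Epcam* (0.17) with *Spp1* the most abundant, and 0 of 4 B cell markers reached the filter.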
